A study of Mus musculus with 14 samples.

Results

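Subunits of the GABA-A receptor were compared between heart and hippocampus of C57BL/6 mice at 2 ages, from log2 expression values of a mouse Affymetrix array. The 7 genes were Gabra2, Gabra3, Gabra4, Gabra5, Gabrb1, Gabrb2 and Gabrd. Every probe set annotated with only 1 of these genes was taken, which gave 21 probe sets of the 45101 on the array, of which 45037 were tested once the array controls were set aside. Pups were 7 days old and of unstated sex, and gave 3 samples of hippocampus and 3 of heart. Adult RNA of male mice 10 weeks old was bought, as mRNA per the labels and as total RNA per the study's methods, with 2 biological replicates of each tissue and a pair of technical arrays for each replicate, which were averaged. The labels name no modified allele and no treatment in any group. Nothing in the labels ties the adult replicates to different animals. Their p-values thus measure only the spread between samples, part of which may be technical. Pup mRNA was isolated by the study and adult RNA came from a vendor, so age cannot be told apart from the source and preparation of the RNA.

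GABA is the main inhibitory transmitter of the adult brain, and the GABA-A receptor is the chloride channel that it opens. A receptor is a ring of subunits drawn from several families, and the alpha, beta and gamma or delta members set where the receptor sits, how strongly it binds GABA and which drugs act on it. Gabra5 is known for its high level in hippocampus, where its receptors sit largely outside the synapse and give a tonic current, and Gabrd forms the extrasynaptic receptors of dentate granule neurons. Gabra2 and Gabra3 belong to synaptic receptors, Gabra4 partners with Gabrd, and the beta subunits carry the part of the GABA binding site that faces the alpha subunit. In immature neurons the chloride gradient makes GABA depolarizing.

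Positions are those of the RefSeq annotation of GRCm38.p6. Gabra2, Gabra4 and Gabrb1 share chromosome 5, at chr5:70958392-71095849, chr5:71569734-71658308 and chr5:71657921-72149572. Gabra4 and Gabrb1 run away from each other, and their annotated spans overlap by 388 bases. Gabra5 lies at chr7:57407669-57591016, Gabrb2 at chr11:42419515-42632591, Gabra3 at chrX:72432676-72656919 and Gabrd at chr4:155384979-155398098. Of the 7 genes, 6 had a window in the RefSeq promoter table, with 10 windows in all, and the 250 bases before each annotated start were searched for the dinucleotide CG and for TATAAA on either strand. The 3 windows printed here are those of the gene that changed most with age, of a gene with 18 CG, and of Gabra3. Gabra3 had no CG and no difference past the threshold in the fit to all 10 samples. They are read 5′ to 3′ on the minus strand of GRCm38.p6, with each CG in capitals. The Gabra5 window is chr7:57510060-57510309, and its start site lies 80957 bases inside the annotated gene, whose span goes on upstream. The Gabra2 window is chr5:71095850-71096099 and the Gabra3 window is chrX:72656920-72657169.
Gabra5: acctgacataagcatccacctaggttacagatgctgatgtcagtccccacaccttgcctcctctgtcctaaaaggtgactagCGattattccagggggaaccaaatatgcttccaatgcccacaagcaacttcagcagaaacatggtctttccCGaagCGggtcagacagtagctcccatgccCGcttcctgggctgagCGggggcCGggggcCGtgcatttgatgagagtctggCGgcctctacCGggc
Gabra2: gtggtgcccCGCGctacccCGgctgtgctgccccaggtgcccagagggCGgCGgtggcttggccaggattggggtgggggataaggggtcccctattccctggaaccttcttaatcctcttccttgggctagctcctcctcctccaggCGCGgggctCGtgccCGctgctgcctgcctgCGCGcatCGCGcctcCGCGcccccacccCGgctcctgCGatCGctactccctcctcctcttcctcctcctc
Gabra3: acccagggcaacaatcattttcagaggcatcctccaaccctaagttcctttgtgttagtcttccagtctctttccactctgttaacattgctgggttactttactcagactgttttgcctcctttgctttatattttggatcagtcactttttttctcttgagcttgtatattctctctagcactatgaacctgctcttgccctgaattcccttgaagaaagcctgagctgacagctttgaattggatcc
The Gabra2 window held 18 CG and 70.0% G or C, and 21.7% of all 32851 windows held as many CG. The Gabra5 window held 9 CG and 56.4% G or C, a number of CG reached by 40.3% of windows. Both Gabra3 windows held 0 CG, against a median of 6 over all windows. TATAAA was present in 3 of the 10 windows, both of Gabra3 and 1 of Gabrb2, against 12.4% of all windows. The other Gabra3 window, chrX:72656808-72657057, overlaps the printed one. The match in the printed window lies in the shared stretch, so the same site was counted in both. These matches are descriptions of the sequence and no binding was measured.

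Arrays of a group correlated with each other at r of 0.931 to 0.968 across probe sets. The hybridization controls, transcripts added late in the protocol, averaged 13.15 and 13.16 in pup hippocampus and pup heart but 10.80 and 10.73 in the adult tissues, so a technical measure moved with age. The tissue labels were matched by the mean of 6 neuronal markers. It was 12.92 to 13.05 in pup hippocampus, 11.88 and 12.21 in adult hippocampus and 9.25 to 9.79 in heart. At each age 4 of the 6 were higher in hippocampus and 2 did not pass. Syt1 averaged 13.88 in pup hippocampus against 14.13 in pup heart, and 13.02 against 12.39 in adults. Rbfox3 averaged 13.18 in hippocampus against 13.28 in heart in pups, and 13.59 against 13.90 in adults. Markers of heart muscle were also present in pup hippocampus. The mean of 12 heart muscle genes was 11.45, 10.60 and 10.02 in its 3 samples, against 9.68 and 9.82 in adult hippocampus and 13.73 to 15.10 in heart. The part of either measure in the results was not tested. Comparisons that use pup hippocampus were also made without the 2 samples of it with the most heart muscle transcript, an alternative chosen after the data were seen. In bulk tissue, fewer cells of a type and less RNA per cell cannot be told apart.

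Between tissues, every member probe set past the threshold was higher in hippocampus than in heart, at both ages. In pups, 8 of the 21 probe sets, from 5 genes, were higher in hippocampus (adjusted p below 0.05, limma) and 0 were lower, with 1 lower at an unadjusted p below 0.05, Gabrb2 1450319_at at -0.92. Over the whole array 14.3% of probe sets differed between the pup tissues, 7.52% higher and 6.77% lower. In adults 8 probe sets of 6 genes were higher and 0 were lower, also at an unadjusted p below 0.05, where 22.2% of the array differed, 10.3% higher and 11.9% lower. Centring and scaling of the arrays turned that adult split from 4639 higher and 5349 lower to 5362 and 4649. The 2 sets of 8 shared 7 probe sets. The median difference of the 21 probe sets was 0.17 in pups and 0.75 in adults, against -0.10 and -0.06 over all probe sets.

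**Figure D1:**
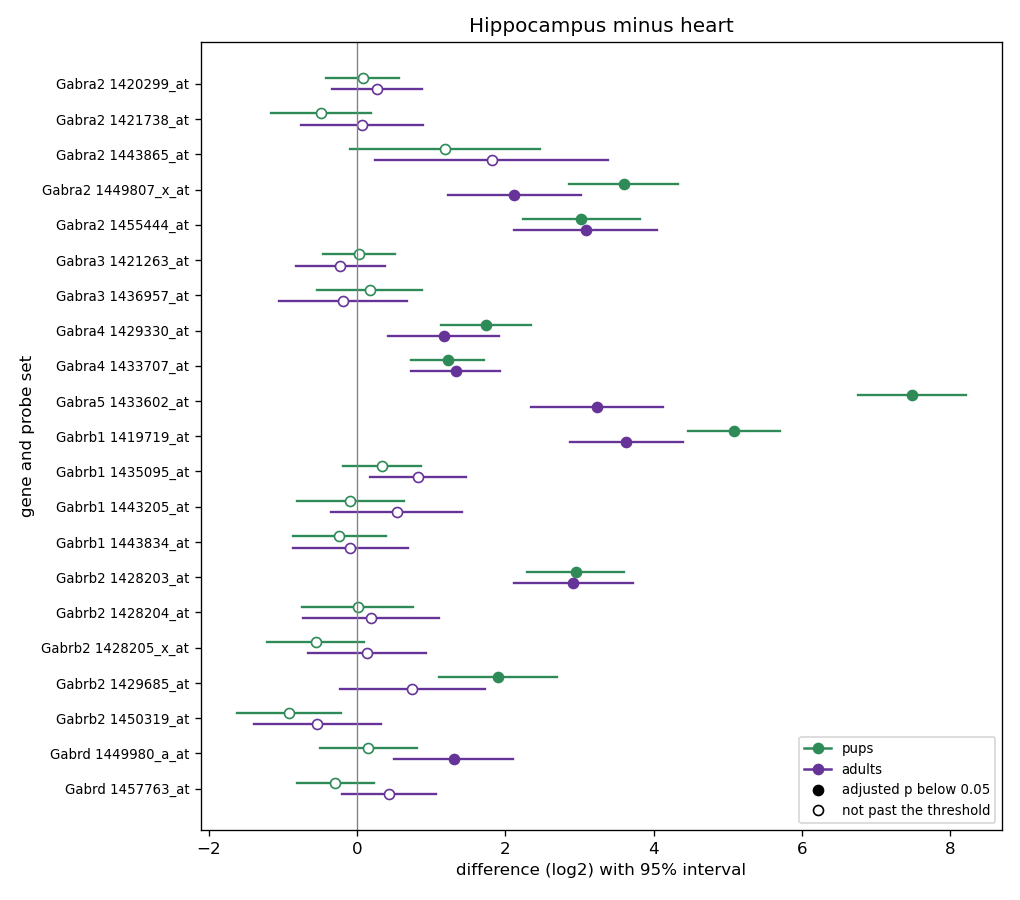
Difference between hippocampus and heart (log2, x axis) for each of the 21 probe sets (y axis) in pups and in adults, with lines for the 95% interval of the limma fit and filled points for adjusted p below 0.05. The largest is Gabra5 in pups at 7.48, and no filled point lies below 0.

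Gabra5 had the widest gap between the tissues of any member in pups. Its only probe set, 1433602_at, read 14.91, 14.72 and 15.04 in pup hippocampus and 7.49, 7.94 and 6.78 in pup heart. The difference of 7.48 (SE 0.33, 95% interval 6.76 to 8.21, adjusted p = 1.07e-06) was the 13th largest in size of all probe sets in that comparison. In adults hippocampus read 11.32 and 11.88 and heart 8.66 and 8.06, a difference of 3.24 (SE 0.40, adjusted p = 0.000714). The tissues did not overlap at either age, and both calls held without each sample in turn. The pup hippocampus values lie near the highest values of the arrays, so the size of the pup difference is not exact.

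Gabrb1, a beta subunit, came next in pups and first in adults, at 1 of its 4 probe sets. Probe set 1419719_at read 12.03, 11.44 and 12.28 in pup hippocampus and 6.91, 6.90 and 6.68 in pup heart, a difference of 5.09 (SE 0.28, adjusted p = 3.39e-06). The adult tissues read 10.92 and 11.01 against 7.68 and 6.98, a difference of 3.63 (SE 0.34, adjusted p = 0.000217). The groups did not overlap. The other 3 probe sets gave no call at either age, and 1443205_at, the brightest, read 12.40 to 13.66 over all 10 samples.

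Gabrb2, the other beta subunit, had 5 probe sets that did not read alike. Probe set 1428203_at was 2.95 higher in hippocampus in pups (SE 0.29, adjusted p = 0.000119) and 2.92 higher in adults (SE 0.36, adjusted p = 0.000708). Its samples read 11.59, 11.04 and 10.83 in pup hippocampus, 11.00 and 11.35 in adult hippocampus, 8.11, 7.87 and 8.62 in pup heart and 8.49 and 8.02 in adult heart. Hippocampus and heart lay apart at each age. Probe set 1429685_at was 1.90 higher in pups (SE 0.36, adjusted p = 0.00617), a call lost without the 2 pup hippocampus samples named above (1.21, adjusted p = 0.193), and in adults its difference was 0.75 (95% interval -0.24 to 1.73). The other 3 gave no call, and the pair 1428204_at and 1428205_x_at read 12.56 to 14.22 in every sample of both tissues.

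Gabra2 and Gabra4, both alpha subunits, also stood higher in hippocampus. Gabra2 did so at 2 of 5 probe sets. Probe set 1455444_at read 10.97, 10.58 and 10.01 in pup hippocampus and 10.21 and 10.48 in adult hippocampus, against 7.38, 8.18 and 6.91 in pup heart and 7.30 and 7.23 in adult heart. The differences were 3.03 (SE 0.35, adjusted p = 0.000313) in pups and 3.08 (SE 0.43, adjusted p = 0.00129) in adults. Probe set 1449807_x_at differed by 3.60 in pups (SE 0.33, adjusted p = 7.02e-05) and 2.12 in adults (SE 0.40, adjusted p = 0.00545). Both probe sets kept their calls without any 1 sample. The correlation of these 2 probe sets across the 10 samples was 0.89, whereas 1421738_at, the brightest for this gene, had r of -0.12 with 1455444_at.

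Gabra4 gave smaller differences at both of its probe sets, which correlated at 0.86. Probe set 1433707_at read 8.89, 8.68 and 9.13 in pup hippocampus, 8.90 and 9.00 in adult hippocampus, 7.41, 7.85 and 7.77 in pup heart and 7.70 and 7.53 in adult heart. No hippocampus sample overlapped a heart sample. The differences were 1.22 in pups (SE 0.22, adjusted p = 0.00466) and 1.33 in adults (SE 0.27, adjusted p = 0.00723). Probe set 1429330_at differed by 1.74 in pups (SE 0.27, adjusted p = 0.00218) and 1.17 in adults (SE 0.34, adjusted p = 0.0332). Without the 2 pup hippocampus samples named above, the pup differences were 1.45 and 1.56 and neither passed (adjusted p = 0.0508 and 0.0977), with 1 sample left in the group. In adults the call of 1429330_at was lost without any 1 of the 4 samples, and that of 1433707_at without adult hippocampus replicate 2 or adult heart replicate 2.

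Gabrd differed between the tissues in adults only at 1 probe set, and Gabra3 gave no call. Gabrd probe set 1449980_a_at read 7.63 and 7.77 in adult hippocampus and 6.51 and 6.28 in adult heart, a difference of 1.30 (SE 0.36, adjusted p = 0.0288) that was lost without any 1 of the 4 adult samples. In pups it differed by 0.15 (95% interval -0.51 to 0.81), and the other Gabrd probe set by -0.29 (-0.81 to 0.23) in pups and 0.43 (-0.21 to 1.07) in adults. Gabra3 read 7.65 to 8.52 at 1421263_at and 8.61 to 9.85 at 1436957_at over all samples, with the tissues overlapping in pups. Its differences were 0.03 (95% interval -0.46 to 0.52) and 0.17 (-0.53 to 0.88) in pups and -0.23 (-0.83 to 0.37) and -0.19 (-1.06 to 0.67) in adults.

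**Figure D2:**
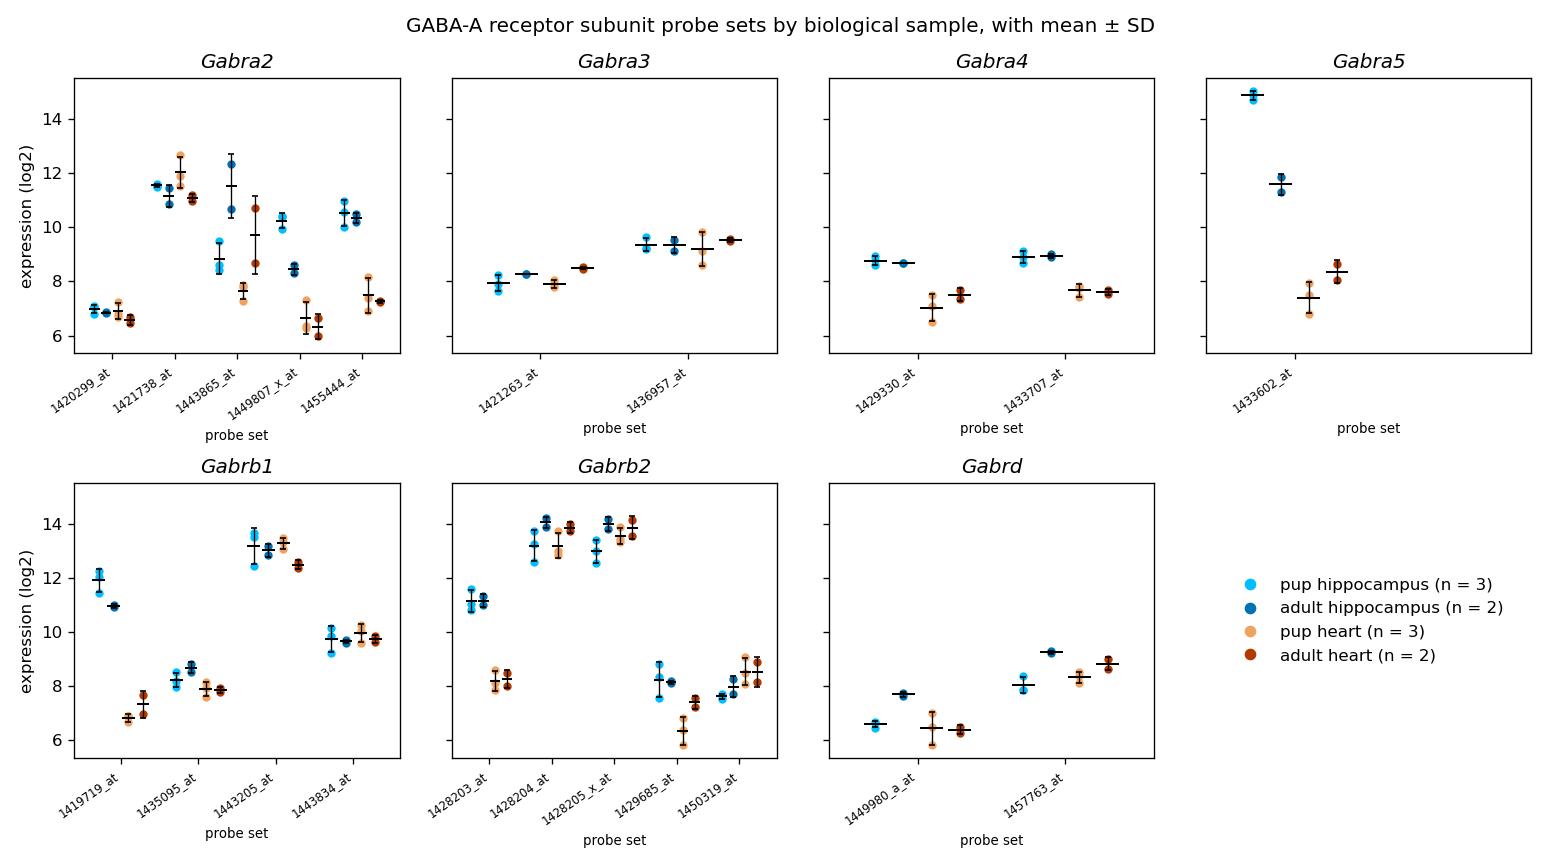
Expression (log2, y axis) of each probe set (x axis, a panel per gene) in every biological sample, with points coloured by group and black bars for the mean ± SD. Gabra5 falls from 14.89 in pup to 11.60 in adult hippocampus, the largest age difference among the 21 probe sets.

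With age, few member probe sets differed. In hippocampus 4 of 21 probe sets passed the threshold, 2 higher in adults (Gabrd and a Gabra2 probe set) and 2 lower (Gabra5 and another Gabra2 probe set). Over the array 14.9% of probe sets passed in this comparison, 8.38% higher in adults and 6.52% lower. The members' count was thus close to that of the array. The samples of the groups did not overlap at 11 of the 21 probe sets, 7 with adults above and 4 with adults below, where 54.4% of the array did not overlap, 31.6% with adults above and 22.9% below. In heart 1 probe set passed, of Gabra2, where 20.0% of the array differed, 11.7% higher and 8.32% lower. The split of the array calls depended on scaling. In heart 5262 were higher and 3749 lower as deposited, against 4277 and 4722 once arrays were centred and scaled, and in hippocampus 3773 and 2936 became 2927 and 3233. The median difference of the members was -0.02 in hippocampus and 0.05 in heart, against 0.12 and 0.11 over the array.

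Gabra5 fell by 3.29 on the log2 scale in hippocampus (SE 0.36, 95% interval -4.10 to -2.48, adjusted p = 0.00107), and both adult samples lay below all 3 pup samples. The pup values lie near the highest values of the arrays, so neither this difference nor the interaction below is exact in size. The call held without each of the 5 samples in turn, without the 2 pup samples with the most heart muscle transcript (-3.44, adjusted p = 0.0304) and in 16 of 17 alternatives, and was lost only when the t-test of the study's methods was held to a false discovery rate of 0.1%. In heart the same probe set differed by 0.96 (95% interval 0.14 to 1.77, adjusted p = 0.0935). The age difference in hippocampus minus that in heart was -4.25 (SE 0.51, adjusted p = 0.00614), the only member interaction past the threshold, where 3.55% of the array passed, 1.18% higher and 2.37% lower. That call was lost without the 2 pup hippocampus samples with the most heart muscle transcript (adjusted p = 0.0562), although the difference itself was -4.40 then. Of 6 markers of immature neurons, 4 were lower in adult hippocampus (Sox4, Tubb2b, Cd24a and Neurod1), and 2 did not pass, Dcx at 0.47 and Sox11 at 1.03. The mean of the 6 was 13.46 to 13.73 in pup and 10.61 and 10.70 in adult samples. Sox4 and Tubb2b were also lower in adult heart (-4.37 and -3.73). Of the 6 general neuronal markers, 3 were also lower in adult hippocampus, 1 was higher and 2 did not pass. Their median difference was -1.15. The part of either list in the result was not tested.

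**Figure D3:**
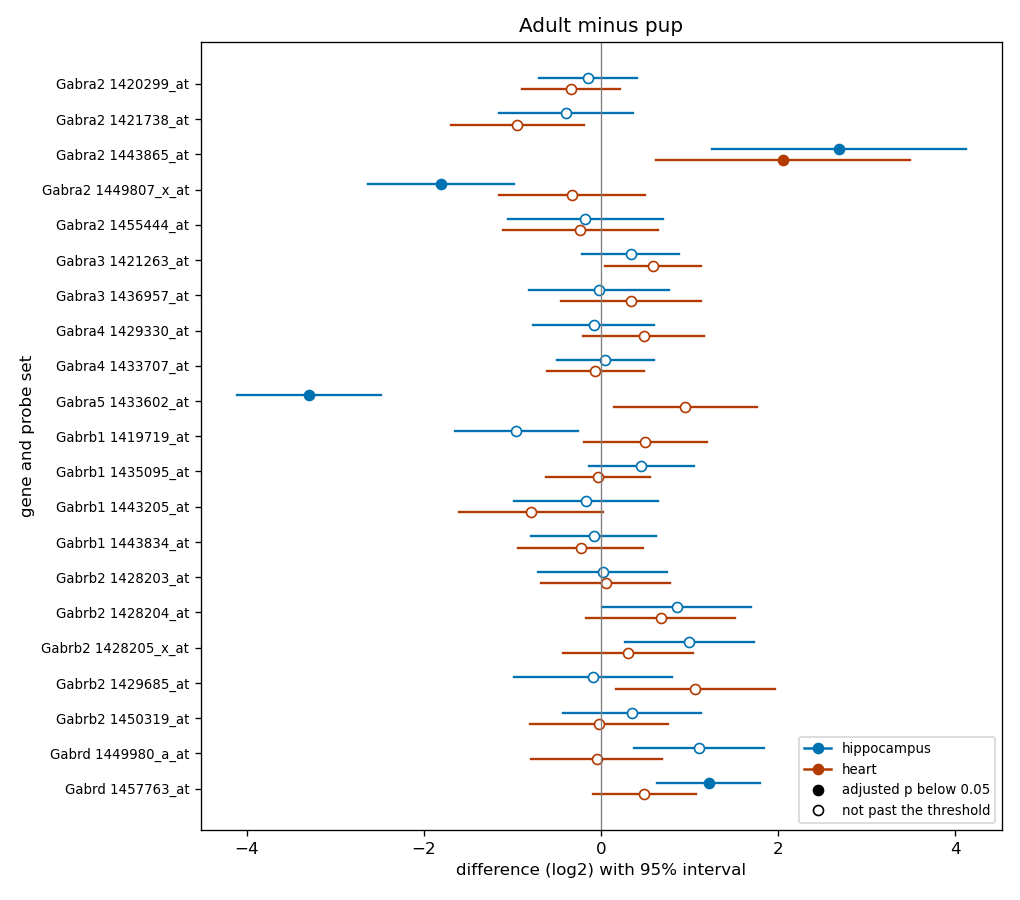
Difference between adult and pup (log2, x axis) for each of the 21 probe sets (y axis) in hippocampus and in heart, with lines for the 95% interval of the limma fit and filled points for adjusted p below 0.05. Gabra5 is at -3.29 in hippocampus and 0.96 in heart, and Gabra2 probe sets lie on both sides of 0.

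Gabrd rose in adult hippocampus. Probe set 1457763_at read 7.88, 8.38 and 7.88 in pups and 9.22 and 9.31 in adults, a difference of 1.22 (SE 0.26, adjusted p = 0.0151). The groups did not overlap, but the call was lost without pup hippocampus replicate 3, without either adult hippocampus sample or without the 2 pup samples with the most heart muscle transcript. The t-test of the study's methods did not call this probe set at a false discovery rate of 0.1% or of 5%. The difference itself stayed between 1.11 and 1.38 in all 17 alternatives. The other probe set, 1449980_a_at, read 6.47, 6.67 and 6.65 against 7.63 and 7.77, a difference of 1.11 (95% interval 0.37 to 1.84) that did not pass (adjusted p = 0.0503). In heart the differences were 0.49 (95% interval -0.09 to 1.07) and -0.05 (-0.78 to 0.69). Markers of dentate granule neurons, where Gabrd is known to be expressed, were higher in adult than in pup hippocampus for 3 of 5. Not all of these 5 set hippocampus apart from heart. Against heart, 1 was higher and 1 lower in pup hippocampus, and 2 were higher and 1 lower in adult hippocampus. The pup means of hippocampus and heart were 7.58 and 13.07 for Dsp, and 12.04 and 12.90 for Tdo2. For Prox1 the adult means were 11.55 and 12.83. Markers of thalamus, another site of Gabrd, were higher in adult than in pup hippocampus for 2 of 5. Tcf7l2 was at 12.28 and 12.63 in adults and 8.83 to 8.91 in pups. The part of either list in the Gabrd result was not tested.

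The Gabra2 probe sets gave opposite calls in hippocampus. Probe set 1443865_at read 8.62, 9.49 and 8.41 in pups and 10.69 and 12.36 in adults, a difference of 2.69 (SE 0.64, adjusted p = 0.0227). Its technical arrays of adult hippocampus differed by 1.02 and 1.81, and the call was lost without pup replicate 1 or 3, adult replicate 2 or the 2 pup samples with the most heart muscle transcript (3.11 then). Probe set 1449807_x_at read 10.42, 10.40 and 9.93 in pups and 8.30 and 8.60 in adults, a difference of -1.80 (SE 0.37, adjusted p = 0.0127), which was lost without either adult sample or without those 2 pup samples (-1.48 then). Both calls were also lost with the t-test of the study's methods, at a false discovery rate of 0.1% and of 5%. The other 3 probe sets gave no call, with 1455444_at at -0.17 (95% interval -1.05 to 0.70). Averaged over its 5 probe sets the gene differed by 0.04. In heart 1443865_at differed by 2.06 (SE 0.64, adjusted p = 0.0485), a call that was lost in 10 of 15 alternatives, both rescalings of the arrays among them.

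The remaining members gave no call with age. Gabrb1 probe set 1419719_at had the largest difference of these in hippocampus after 1428205_x_at of Gabrb2: it was -0.95 (95% interval -1.65 to -0.26, adjusted p = 0.0682), and 1428205_x_at was 1.00 (0.27 to 1.73, adjusted p = 0.0679). For Gabrb2 1428203_at the interval in hippocampus was -0.71 to 0.75. For Gabra4 the intervals were -0.76 to 0.60 and -0.50 to 0.60, and for Gabra3 they were -0.21 to 0.88 and -0.81 to 0.77. An age difference over 1 in either direction thus lay outside the hippocampus intervals of these probe sets. The Gabra3 probe sets correlated with each other at 0.15, and whether they read Gabra3 transcript was not tested.

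The genes whose pattern over the 10 samples was most like that of a member are given as a description, since the samples share 4 groups. Gabra5 correlated best with Tspoap1 (r = 0.997) and Bcan (r = 0.995), and Gabra4 with Hpcal4 (0.989) and Chgb (0.979). For Gabrd they were Habp2 (0.945) and Sntb1 (0.941), for Gabra3 Coq6 (0.941) and Fmod (0.937), and for Gabrb2 Ldah (0.969) and Zfp292 (0.952). Gabra2 and Gabrb1 were closest to Gm33560 (0.923) and Foxp3 (0.919). The Gabra2 pattern is that of 1421738_at, whose technical arrays differed by 1.23 and 2.94 in adult hippocampus and by 3.13 and 2.65 in adult heart. The brightest probe sets of Gabra2, Gabra3, Gabrb1, Gabrb2 and Gabrd gave no call between the tissues at either age.

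Other genes of GABA signalling were taken at their brightest probe set. Over the array 14.9% of probe sets passed with age in hippocampus and 20.0% with age in heart. Between tissues 14.3% passed in pups and 22.2% in adults, and 3.55% passed in the interaction. Of the other GABA-A subunits 8 of 12 were measured, and in hippocampus 1 was higher in adults. That gene, Gabre, encoding the epsilon subunit, read 7.78, 7.95 and 7.54 in pups and 8.77 and 9.11 in adults, a difference of 1.18 (SE 0.24, adjusted p = 0.0118). The median of the 8 was 0.66, against 0.10 over all genes. In heart Gabre (1.83) and Gabrr1 (3.02), a rho subunit, were higher in adults. Between tissues Gabrg3 was higher in hippocampus at both ages (1.06 and 1.81), and Gabre (-0.84) and Gabrr2 (-1.55) were lower in adult hippocampus than in adult heart. In the interaction 0 of the 8 passed, 1 at an unadjusted p below 0.05, with the largest values at 1.78 for Gabrp and -1.55 for Gabrr1. Pup heart replicate 3 lay apart for both genes. Gabrp read 9.49, 9.64 and 12.92 in pup heart, and Gabrr1 read 10.79, 10.85 and 8.35. The age difference of Gabrr1 in heart uses the same samples.

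Genes for making, packaging and clearing GABA did not pass with age at their brightest probe sets. Those of Gad1 and Gad2 also read high in heart. Gad1 averaged 13.32 and 14.06 in pup and adult hippocampus, and 13.93 and 13.41 in pup and adult heart. Gad2 averaged 15.07 and 14.52 in hippocampus, and 14.21 and 14.25 in heart. Of 8 measured of 9, 0 were called by limma in either tissue, with 1 in hippocampus and 0 in heart at an unadjusted p below 0.05, and the largest differences in hippocampus were -1.48 for Slc32a1, the vesicular GABA transporter, and -1.12 for Aldh5a1, which acts in GABA breakdown. Between tissues Slc32a1 (4.34 in pups and 3.44 in adults) and Slc6a11, a GABA transporter of astrocytes (2.98 and 3.60), were higher in hippocampus. In heart the largest age differences were 0.68 for Abat, which breaks down GABA, and -0.59 for Slc32a1. In the interaction 0 passed, 1 at an unadjusted p below 0.05, and the largest values were 1.25 for Gad1, which makes GABA, and -0.89 for Slc32a1.

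Of the scaffold and trafficking genes 21 of 22 were measured, and in hippocampus 1 was higher and 3 were lower in adults. Over the array 14.9% of probe sets passed, 8.38% higher and 6.52% lower. The total was near the array's share, but its split leaned lower, on few genes. The list takes each gene's brightest probe set, whereas the shares cover all probe sets. The median of the 21 was 0.11, against 0.10 over all genes. Gabarap, which binds GABA-A receptors and acts in autophagy, fell by 2.83 (adjusted p = 0.00199). Dag1, the dystroglycan of inhibitory synapses and muscle, fell by 2.75 (adjusted p = 0.00364), and Gabarapl1, a relative of Gabarap, fell by 1.16 (adjusted p = 0.0218). Gabarap read 15.09, 14.98 and 14.88 in pups and 11.96 and 12.34 in adults. These pup values and those of Gabarapl1 (15.01 to 15.14) lie near the highest values of the arrays. Differences that use them are thus not exact in size. Trak1, an adaptor for transport along microtubules, rose by 1.16 (adjusted p = 0.0387). In heart 4 were higher and 3 lower in adults, where 11.7% of the array was higher and 8.32% lower. The largest were 1.47 for Shisa7, an auxiliary subunit of GABA-A receptors, 1.45 for Mdga2, which acts on synaptic adhesion, and 1.03 for Trak1, and -2.10 for Gabarap, -1.79 for Dag1 and -1.19 for Trak2. Between tissues 3 were higher in pup hippocampus and 5 in adult hippocampus, and 0 were lower, with 1 lower at each age at an unadjusted p below 0.05. Over the array 7.52% were higher and 6.77% lower in pups, and 10.3% higher and 11.9% lower in adults. The pup calls were Gabarapl1 (3.50), Ubqln1 (2.74) and Nlgn2 (1.26), an adhesion protein of inhibitory synapses, and the largest adult calls were Ubqln1 (2.52), Iqsec3 (2.35) and Gabarapl1 (2.33). In the interaction 0 passed, 3 higher and 2 lower at an unadjusted p below 0.05, with Iqsec3 at 1.38 and Mdga2 at -1.34.

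Chloride transporters set the gradient on which the receptor acts, and 3 of 4 were measured. Slc12a5, the neuronal chloride exporter, read 14.79, 14.33 and 14.88 in pup hippocampus and 13.10 and 13.65 in adult hippocampus, and it fell by 1.29 (SE 0.31, adjusted p = 0.0229). In heart it was 1.15 higher in adults (adjusted p = 0.0277), and the interaction of -2.44 passed (adjusted p = 0.0196). The pup hippocampus values of Slc12a5 lie near the highest values of the arrays, so differences that use them are not exact in size. Alternatives were reported for the members only. Slc12a2, a chloride importer, differed by -1.16 in hippocampus without passing and was lower in adult heart (-2.35), as was Slc12a7 (-1.93). Slc12a5 was higher in hippocampus than in heart, by 5.31 in pups and 2.86 in adults. Slc12a7 was lower in pup hippocampus than in pup heart (-2.14), with an interaction of 1.99 that passed, and Slc12a2 was higher in adult hippocampus than in adult heart (1.81). Of the GABA-B receptor genes 3 of 5 were measured, and 0 passed with age in hippocampus, with 1 lower at an unadjusted p below 0.05. The largest values there were -0.85 for Gabbr1, a subunit of that receptor, and 0.20 for Kctd8, an auxiliary subunit. Kctd8 was higher in adult than in pup heart (1.16) and lower in adult hippocampus than in adult heart (-1.64), and in pups Gabbr1 was higher in hippocampus than in heart (1.30). In the interaction 0 passed, also at an unadjusted p below 0.05, with Kctd16 at -1.34 and Kctd8 at -0.96.

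**Figure D4:**
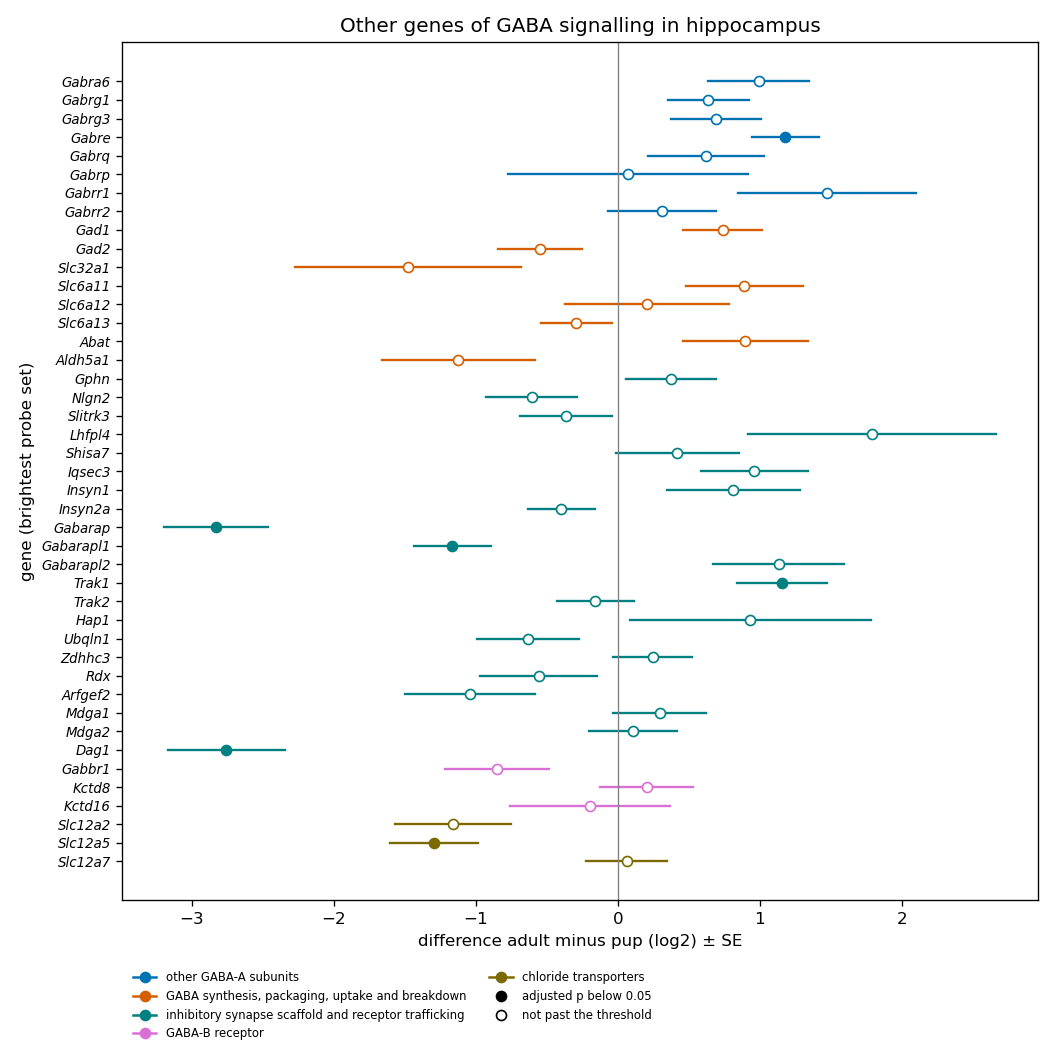
Difference between adult and pup hippocampus (log2, x axis, with lines for ± SE) for other genes of GABA signalling (y axis), coloured by list and filled where adjusted p was below 0.05. Of the filled points, Gabre and Trak1 lie above 0, and Gabarap, Gabarapl1, Dag1 and Slc12a5 below.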

How the data were processed

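The deposited values are log2 expression values per probe set, which the authors made with RMA (version 2.0 per the labels), summarizing probes by the upper decile. How background was treated is not given in the sources used here, and no value was compared with background. Probe sets were named through the platform annotation, in which 34958 probe sets name 1 gene, 932 several and 9211 none, and positions and windows came from RefSeq. Values were used as deposited, without rescaling. Averaging the technical arrays left 10 samples. In limma 3.58.1 (R 4.3.3), 1 model with all 10 was fitted to the 45037 probe sets that were not array controls, and had a mean per group and 6 residual degrees of freedom. Adults were compared with pups within a tissue, and hippocampus with heart within an age. The interaction is the age difference of hippocampus less that of heart. Tests were two-sided, p-values were adjusted by Benjamini-Hochberg over all probe sets of a contrast with 0.05 as the threshold, and intervals are at 95%. The fit was tested on simulated data. Precision is limited by how many arrays there were: a member difference had a median SE of 0.34 with age, 0.30 for tissue in pups, 0.37 for tissue in adults and 0.48 for the interaction.

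The members and lists were chosen with earlier results of these data known. Every member probe set was reported. Of a pathway list, taken at each gene's brightest probe set, up to 3 called genes per direction were named, or the 2 largest differences where none was called. The 2 genes with the highest r to a member's brightest probe set were its likest. Alternatives were other scalings, treatments of probe sets and of technical arrays, the methods' t-test, a replicate block and leaving out each sample. Titles give 2 adult replicates per tissue, but other labels name 4, so 4 were also tried.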

Additional observations from a re-analysis of the deposited data

Results flagged for a closer look

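The age difference of Gabra5 (probe set 1433602_at) in hippocampus differed from that in heart by -4.25 on the log2 scale (SE 0.51, adjusted p = 0.00614 from limma's interaction term). The pup hippocampus values behind it lie near the highest values of the arrays, so its size is not exact.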

How the results depend on the processing

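No member result changed direction once called. With only the brightest probe set of each gene, 2 members were called with age in hippocampus, 0 with age in heart, and 2 between tissues at each age. With the mean over a gene's probe sets the counts were 2, 0, 4 in pups and 5 in adults. The methods' t-test at a false discovery rate of 0.1% called 0 in the age and tissue comparisons, and at 5% it called 2 with age in hippocampus, 0 with age in heart, 4 between pup tissues and 0 between adult tissues. It could not give the interaction. Age in heart gave 0 calls after quantile normalization, without probe sets ending _s_at or _x_at and from 2 groups only, and 4 with adult arrays as 4 replicates, where the interaction gave 3. Without the 2 pup hippocampus samples with the most heart muscle transcript, counts were 1 with age in hippocampus, 5 between pup tissues and 0 for the interaction. Leaving out each sample in turn gave 1 to 5 calls with age in hippocampus, 0 to 1 in heart, 8 between pup tissues, 5 to 6 between adult tissues and 1 to 2 for the interaction. The causes were not tested, and these counts were not set beside the share of the array called under each setting. Of 13 same-numbered sample pairs 1 correlated above 0.1, so numbers were not taken as pairing; with the replicate block the counts were 4, 1, 8, 9 and 1. With arrays centred and percentile scaled, the 1 call with age in heart was another, Gabra2 1421738_at, lower in adults. That scaling moved the median of all probe sets with age from 0.12 to 0.02 in hippocampus and from 0.11 to -0.03 in heart.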
